A study of Homo sapiens with 10 samples.

Results

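The genes described here are the unfolded protein, integrated stress and heat shock genes of LS180, a human colorectal cancer line that secretes mucus proteins. They were taken by symbol from a list of 43 names, of which 42 were found among the 58870 genes of the expected-count table; the remaining name, CHOP, is an alias of DDIT3, which was found under that symbol. They form 3 groups: 16 chaperones, folding enzymes and sensors of the endoplasmic reticulum (ER), 13 genes of the integrated stress response around ATF4, and 13 heat shock genes of the cytosol and mitochondria. All 42 passed the filter on low counts.

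The study compared LS180 lines made with CRISPR interference, in which a catalytically inactive Cas9 is guided to a promoter to lower transcription, against RNASE1, the gene of a secreted ribonuclease. NTC1 and NTC2 carried non-targeting guides, which gave 2 control lines, and sg1, sg2 and sg3 carried different RNASE1 guides, which gave 3 guide lines, each sequenced as a library lettered A and a library lettered B, so the data held 4 NTC and 6 guide libraries. All lines were grown in the same serum-containing medium and received no drug. The labels do not say what the letters stand for, how many clones make up a line, or whether A and B were separate cultures, so part of the library spread behind the p-values may be technical.

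The unfolded protein response is started by ER sensors, among them IRE1, encoded by ERN1 and in secretory epithelium also by ERN2, which splices XBP1 mRNA so that it makes an active transcription factor, and it raises ER chaperones such as HSPA5 (BiP). The integrated stress response begins with phosphorylation of the initiation factor eIF2 and favours translation of ATF4, a factor that turns on genes of amino acid synthesis and transport, as well as DDIT3, TRIB3 and CHAC1. The heat shock response is run by HSF1, which binds heat shock elements in front of the genes of cytosolic chaperones when misfolded protein accumulates. Goblet-like cells of the intestine carry a heavy load of mucin folding in the ER, to which AGR2, a disulfide isomerase needed for mucins, contributes.

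Promoter windows of 250 bases before to 50 bases after the RefSeq start site (build GRCh38.p14) were matched for 38 of the 42 genes, and were searched on both strands for the elements the 3 responses are known by. The ER stress response element, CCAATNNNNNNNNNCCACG, was present in 5 of 15 ER genes (CALR, CANX, HSP90B1, HSPA5 and XBP1) against 0.0769% of all 35116 promoters, and its second form, ATTGGNCCACG, in 3 of 15 (HERPUD1, HYOU1 and SDF2L1) against 0.0541%. The stretches below are shown because they lie in front of a main ER chaperone, the response's transcription factor and a pair of degradation and folding genes; the element is in capitals, and each stretch is printed in the direction of transcription.
HSPA5: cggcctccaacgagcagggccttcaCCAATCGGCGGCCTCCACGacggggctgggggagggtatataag
XBP1: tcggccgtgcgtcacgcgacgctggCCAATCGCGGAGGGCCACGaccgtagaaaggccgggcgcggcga
HERPUD1: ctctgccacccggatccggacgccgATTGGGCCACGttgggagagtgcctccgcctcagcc
SDF2L1: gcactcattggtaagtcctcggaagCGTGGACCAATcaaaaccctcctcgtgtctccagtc
The stretch of HSPA5 is chr9:125241366-125241434 on the minus strand, and that of XBP1 is chr22:28800578-28800646 on the minus strand. The stretch of HERPUD1 is chr16:56932000-56932060 and that of SDF2L1 is chr22:21642089-21642149, both on the plus strand, with the element of SDF2L1 in reverse orientation, as its reverse complement. In HYOU1 the unfolded protein response element, TGACGTGG, overlapped the second form of the ER stress response element; it was found in 1 of 15 ER genes and in 0.729% of all promoters.

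The CEBP-ATF response element bound by ATF4, TGATGNAA, was present in 4 of 11 integrated stress genes (ASNS, ATF3, CHAC1 and SLC3A2), in the ER gene HERPUD1, and in 3.62% of all promoters. A heat shock element of 3 units, GAANNTTCNNGAA, was present in 2 of 12 heat shock genes (DNAJA1 and HSPA8) and in 0.49% of all promoters. The stretches of ASNS, CHAC1 and HSPA8 are shown as the windows of amino acid synthesis, glutathione breakdown and the most abundant chaperone; the element is in capitals, in reverse orientation (the reverse complement of the letters above) in CHAC1 and HSPA8.
ASNS: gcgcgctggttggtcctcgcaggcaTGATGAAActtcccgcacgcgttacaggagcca
CHAC1: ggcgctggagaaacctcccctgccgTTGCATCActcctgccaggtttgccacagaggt
HSPA8: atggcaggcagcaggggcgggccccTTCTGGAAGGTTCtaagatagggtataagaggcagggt
They lie at chr7:97872444-97872501 on the minus strand, chr15:40953237-40953294 on the plus strand and chr11:123062154-123062216 on the minus strand. A match is a description of these letters in this window, and the absence of one says nothing about binding.

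Library totals ranged from 39026605 to 45050991 expected counts. RNASE1 held 16.4 to 23.7 CPM (counts scaled to library depth by edgeR) in NTC libraries and 1.02 to 3.75 CPM in guide libraries, so the labels of the lines match the targeted gene. The 10 epithelial markers checked, EPCAM and KRT8 among them, were all above 1 CPM in every library, as were the 4 goblet cell markers, while the 3 endothelial markers did not exceed 0.281 CPM. Of the 4 leukocyte markers PTPRC was at 0 and CD3E at most at 0.0472 CPM, while LYZ was at 27.2 to 37.4 CPM and CD68 at 7.61 to 9.29 CPM; the 4 summed to 41.8 to 45.9 CPM in A and 35.1 to 44.7 CPM in B. Of the 5 fibroblast markers COL1A2 was at 0 and COL3A1 at 1.36 to 2.64 CPM, and the 5 summed to 2.57 to 3.16 CPM in A and 3.10 to 4.04 CPM in B. Ribosomal protein genes took 7.47% to 7.96% of counts in the A libraries and 7.04% to 7.31% in the B libraries, which did not overlap.

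Per transcript length, cytosolic chaperones led the 42 genes. HSPA8, the constitutive Hsc70, stood first at a mean of 5039 TPM (counts per kilobase of the longest annotated transcript, scaled to a fixed total), followed by HSP90AB1, the constitutive Hsp90, at 3057 TPM and HSPD1, the mitochondrial Hsp60, at 2325 TPM. Their ranges over the 10 libraries did not overlap (4622 to 5486 TPM, 2928 to 3257 TPM and 2226 to 2476 TPM). Among ER genes CALR, the calcium-binding lectin calreticulin, was highest at 1510.1 TPM and AGR2 second at 862 TPM. AGR2 could not be separated from its neighbour in the order, HSPE1 at 854 TPM, the co-chaperonin of HSPD1: AGR2 ranged from 803 to 985 TPM and HSPE1 from 829.9 to 888 TPM. Of the integrated stress genes SLC7A5, the large neutral amino acid transporter, was highest at 706 TPM, and ATF4 stood at 497 TPM.

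The stress-induced regulators DDIT3 and ATF3 and the sensor gene ERN1 stood near the bottom of the order. In CPM, which is not divided by length, ERN1 averaged 11.3, above ATF3 at 4.13 and DDIT3 at 2.77. Its last place in TPM goes with a longest transcript of 7876 bases. DDIT3, the pro-apoptotic CHOP, averaged 6.82 TPM, ATF3 5.16 TPM and ERN1 3.77 TPM, and the ranges of ATF3 (4.47 to 6.14 TPM) and ERN1 (2.96 to 4.70 TPM) overlapped. ERN2 was above ERN1 in TPM, at 17.2, in every library (14.2 to 20.5 TPM). HSPA1A at 5.99 TPM and HSPA1B at 342 TPM encode the same inducible Hsp70 and are near-identical in sequence; HSPA1A received 1.36% to 1.97% of the counts of the pair, so how RSEM split the reads between them is uncertain and they were also tested as 1 sum. HSPD1 (chr2:197486581-197516737) and HSPE1 (chr2:197499994-197503457) overlap on opposite strands in GENCODE 29, and a kit that does not mark strand cannot tell reads of the overlap apart. The plot of levels shows the 3 groups spread over the whole scale, with 39 of the 42 genes at a mean of 10 CPM or more and 7 above 1000 CPM.

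**Figure D1:**
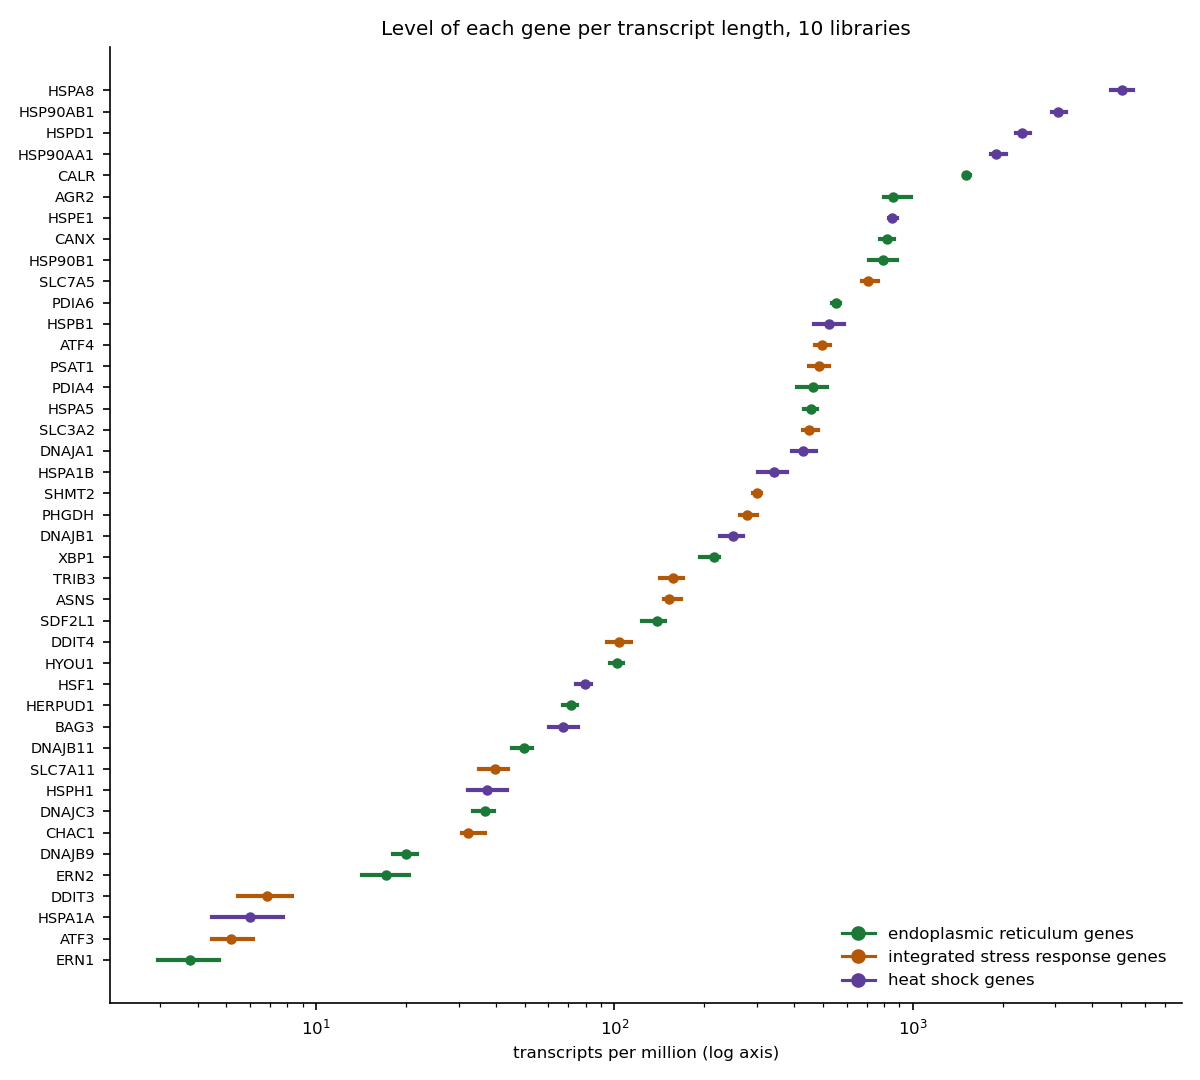
Mean level (points) and range over 10 libraries (bars) of each gene in TPM on a log axis, coloured by group. HSPA8 leads at 5039 TPM and ERN1 is lowest at 3.77 TPM, and each gene's bar is short beside the distance between the ends of the order.

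Between libraries the genes moved little. The highest library exceeded the lowest by a median of 1.18-fold, from 1.07-fold for ATF4 to 1.796-fold for HSPA1A, and 41 of 42 genes stayed under 1.5-fold, as did 96.8% of the 9527 genes at 10 CPM or more. HSPA1A had 173 to 331 counts per library and its partner HSPA1B, which spread by 1.28-fold, 12129 to 16479. The heat map of libraries shows the genes' deviations with the letters side by side.

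**Figure D2:**
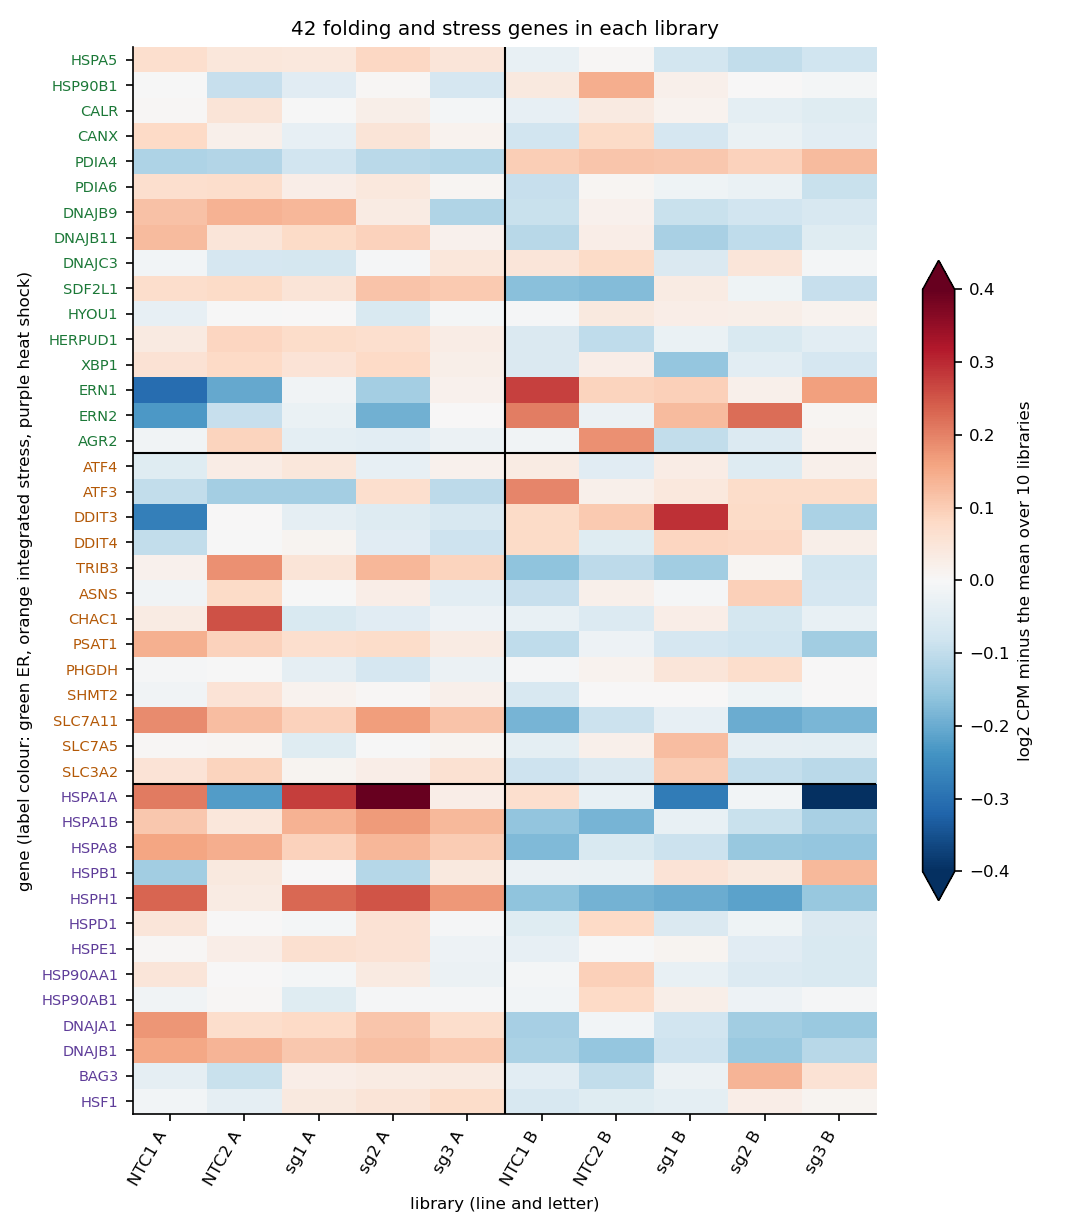
Log2 CPM of each gene in each library minus the gene's mean over the 10 libraries, with A libraries left and B libraries right of the vertical line and the 3 groups separated by horizontal lines. PDIA4, ERN1 and ERN2 turn from mostly blue in A to mostly red in B, and HSPH1, HSPA8, HSPA1B, DNAJB1 and SLC7A11 the other way; the scale ends at 0.4 in either direction.

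None of the 42 genes passed the test between RNASE1 guide lines and NTC lines, and the fold changes of all of them were bounded closely. With A and B summed per line, 3 guide lines against 2 NTC lines, 0 of 42 genes passed an adjusted p of 0.05 by edgeR's quasi-likelihood test, where 4 of 17335 genes (0.0231%) did, and DESeq2 also called 0 of the 42. At an unadjusted p under 0.05 there were 6 genes (14.3%, against 7.98% of all genes): AGR2 and HSP90AA1 with lower, and SDF2L1, HSPA1B, BAG3 and HSF1 with higher fitted values under the guides. That count was not stable: it was 15 without NTC1 B and 1 without NTC2 B or without sg3 A. Leaving out 1 library left its line with 1 letter, so any difference between the letters entered those comparisons. Leaving out a whole guide line, which kept both letters in every line, gave 3 (sg1), 3 (sg2) and 4 (sg3). Leaving out an NTC line leaves 1 control line, so those counts are not given. The 3 counts therefore do not show how far the result depends on which control lines are used. The median log2 fold change of the 42 was 0.00, as it was over all genes. It ran from -0.10 for AGR2 to 0.11 for BAG3.

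All 42 genes had a 95% interval no wider than 1.25-fold up or down, as had 63.6% of all genes tested and 99.2% of the 9532 genes at 10 CPM or more, so this precision is that of abundant genes in general. The smallest adjusted p was 0.379, for BAG3. The plot of guide lines against NTC lines shows the widest intervals in DDIT3, HSPA1A and ATF3, the genes with the fewest counts.

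**Figure D3:**
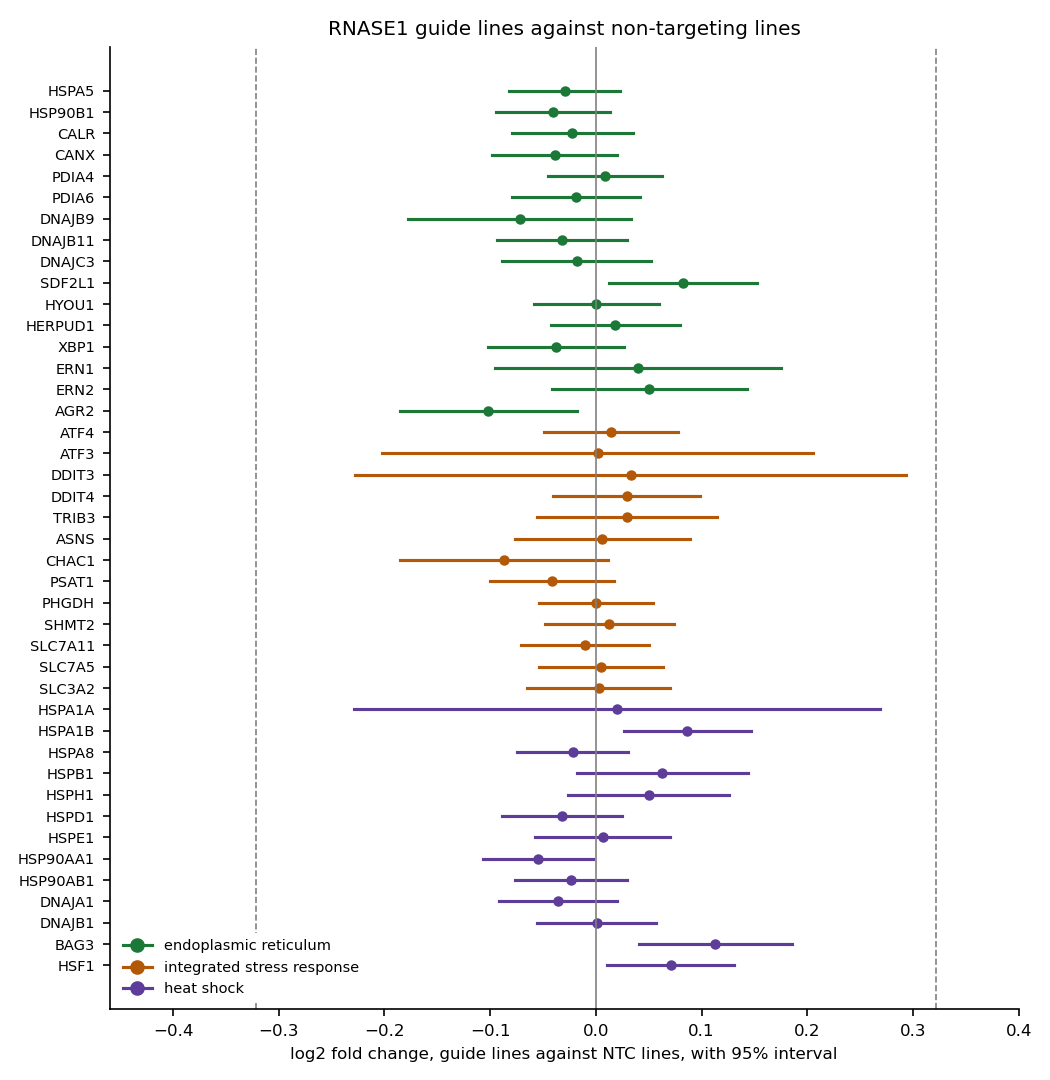
Log2 fold change of each gene in 3 guide lines against 2 NTC lines (points) with its 95% interval (bars) from edgeR's quasi-likelihood fit; the dashed lines mark 1.25-fold. All 42 intervals lie between the dashed lines, and the fitted values run from -0.10 to 0.11.

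In the ER group, HSPA5, the main Hsp70 chaperone of the ER and the most used readout of the unfolded protein response, gave 711, 699.9, 699, 719 and 701 CPM in the A libraries of NTC1, NTC2, sg1, sg2 and sg3, and 665, 681, 645, 634 and 642 CPM in their B libraries; lists of 5 values below keep this order of lines. NTC lines averaged 689 ± 1.54 CPM (SD over 2 lines) and guide lines 673 ± 2.57 CPM (SD over 3 lines), a log2 fold change of -0.03 (SE 0.02, edgeR adjusted p = 0.805) with a 95% interval of 0.945 to 1.02 on the fold scale. NTC and guide libraries overlapped. XBP1, the transcription factor of the IRE1 branch, had 185, 188, 185, 188 and 181 CPM in A and 171, 181, 160.1, 173 and 170.1 CPM in B, and a log2 fold change of -0.04 (SE 0.03, edgeR adjusted p = 0.795); gene counts do not distinguish its spliced form. DNAJB9, a co-chaperone of BiP that holds IRE1 inactive, had 22.4, 22.7, 22.6, 21.1 and 19.0 CPM in A and 19.4, 20.9, 19.4, 19.5 and 19.7 CPM in B. Guide and NTC libraries overlapped here too, at -0.07 (SE 0.05, edgeR adjusted p = 0.754).

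AGR2 had 578, 621, 568, 567 and 574 CPM in A and 578, 662, 545, 562 and 589 CPM in B. Both NTC2 libraries lay above every other library, while the NTC1 libraries lay among those of the guides. Its log2 fold change in guide lines was -0.10 (SE 0.04, edgeR adjusted p = 0.516). NTC2 differed from NTC1 by 0.15 (SE 0.06, unadjusted p = 0.0230, edgeR adjusted p = 1), so the value between guide and NTC lines was no larger than that between the control lines. SDF2L1, a component of the ER chaperone complex, had 47.9, 48.1, 47.2, 49.3 and 49.0 CPM in A and 40.5, 40.4, 46.6, 45.05 and 42.7 CPM in B, at 0.08 (SE 0.03, edgeR adjusted p = 0.528). In B the guide lines lay above both NTC lines, and in A the lines overlapped. HSP90B1, the ER Hsp90, and CALR had log2 fold changes of -0.04 and -0.02, neither past the threshold.

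In the integrated stress group, ATF4 itself had 370.3, 390.2, 395, 374 and 387 CPM in A and 391, 371, 391, 369 and 388 CPM in B, with a log2 fold change of 0.01 (SE 0.03, edgeR adjusted p = 0.944) and a fold interval of 0.966 to 1.06. It was the gene with the narrowest spread of the 42. ATF4 activity is set mainly at translation, which mRNA counts do not measure. ASNS, asparagine synthetase, had 135, 144, 137, 139 and 133 CPM in A and 128, 139, 137, 146 and 131 CPM in B, at 0.01 (SE 0.04, edgeR adjusted p = 0.984). CHAC1, a glutathione-degrading enzyme, had 23.3, 27.2, 21.8, 22.1 and 22.5 CPM in A and 22.3, 21.9, 23.2, 21.7 and 22.3 CPM in B, at -0.09 (SE 0.05, edgeR adjusted p = 0.675). Its highest value by some distance was in NTC2 A, and the other 9 libraries lay within 21.7 to 23.3 CPM. DDIT3 had 2.28, 2.76, 2.69, 2.66 and 2.64 CPM in A and 2.91, 2.97, 3.38, 2.91 and 2.53 CPM in B, which rests on 96 to 133 counts per library and leaves an interval of 0.854 to 1.23 on the fold scale. ATF3, a stress-induced factor downstream of ATF4, had 3.85, 3.75, 3.75, 4.32 and 3.83 CPM in A and 4.72, 4.18, 4.25, 4.34 and 4.34 CPM in B, with a fold interval of 0.869 to 1.15. Both genes overlapped between guide and NTC lines.

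The amino acid genes had fold changes near 1. PHGDH, the entry enzyme of serine synthesis, had 337, 338, 330.3, 323 and 333 CPM in A and 337, 341, 349.6, 355 and 339 CPM in B, at 0.00 (SE 0.03, edgeR adjusted p = 0.999). SLC7A5 had 1224, 1228, 1181, 1219 and 1229.6 CPM in A and 1189, 1239, 1329, 1189.8 and 1188 CPM in B, at 0.01 (SE 0.03, edgeR adjusted p = 0.982). In sg1 its B library was higher than its A library by 0.17 on the log2 scale, and SLC3A2, the heavy chain that pairs with SLC7A5 in the membrane, was higher there by 0.09, while the other lines lay between -0.05 and 0.01 for SLC7A5 and between -0.17 and -0.12 for SLC3A2. DDIT4, an inhibitor of mTORC1 signalling, had 64.2, 68.7, 69.3, 66.7 and 64.9 CPM in A and 72.6, 66.4, 73.0, 72.9 and 69.8 CPM in B, at 0.03 (SE 0.03, edgeR adjusted p = 0.862). No gene of this group reached an unadjusted p under 0.05.

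In the heat shock group, BAG3, a co-chaperone that couples Hsp70 to autophagy, had 64.4, 62.1, 67.2, 67.5 and 67.7 CPM in A and 64.1, 61.6, 65.0, 72.5 and 68.8 CPM in B. It was the only one of the 42 whose guide libraries (65.0 to 72.5 CPM) and NTC libraries (61.6 to 64.4 CPM) did not overlap, a pattern that 0.914% of 16411 genes showed; its log2 fold change was 0.11 (SE 0.03, edgeR adjusted p = 0.379) and it did not pass. HSF1 had 104, 102, 108, 109 and 110.3 CPM in A and 100.4, 101, 102, 107 and 106 CPM in B, at 0.07 (SE 0.03, edgeR adjusted p = 0.529). In each letter the 3 guide lines lay above both NTC lines, while across letters they overlapped. HSPA1B showed the same pattern, and its letters differed. Its guide libraries held 358.5 to 368.9 CPM in A and 299.7 to 320.8 CPM in B. Its NTC libraries held 352.8 and 338.0 CPM in A, and 293.4 and 288.0 CPM in B. How many of all genes separate within each letter was not counted. HSPB1, the small heat shock protein Hsp27, had 264, 299, 292, 269 and 299 CPM in A and 287, 285, 302, 299 and 318 CPM in B, at 0.06 (SE 0.04, edgeR adjusted p = 0.718). HSP90AA1, the inducible Hsp90, had 2639.8, 2555, 2539, 2613 and 2510.3 CPM in A and 2535, 2723, 2498, 2456 and 2447 CPM in B, at -0.05 (SE 0.02, edgeR adjusted p = 0.602). HSPD1 had 2252, 2180.2, 2165, 2266 and 2171 CPM in A and 2105, 2300.0, 2089.6, 2149 and 2091 CPM in B, at -0.03 (SE 0.03, edgeR adjusted p = 0.801). Guide and NTC libraries overlapped for all 3 of these genes. The sum of HSPA1A and HSPA1B gave 0.09 (SE 0.03, edgeR adjusted p = 0.447).

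Guide by guide, 0 of 42 genes passed against the mean of NTC1 and NTC2 for sg1, sg2 or sg3, where 1 of 16411 genes (0.00609%) passed for each guide by edgeR's quasi-likelihood test; DESeq2 also called 0 of the 42. Unadjusted p under 0.05 was met by 1 gene for sg1 (AGR2, -0.13), 2 for sg2 (AGR2, -0.11, and BAG3, 0.15) and 0 for sg3. Of all genes 2.30%, 1.82% and 2.16% met it. The letter as a replicate block raised the counts among the 42 to 2, 5 and 4. The share of all genes under the block was not counted, and the shares above are of the fit without it. No excess is read from the blocked counts. BAG3 had 0.11 (SE 0.05) in sg3. The fits of single guides carry no term for the letter and are wider. Intervals lay within 1.25-fold for 35, 34 and 35 genes and within 1.5-fold for 42, 41 and 41, the exception being HSPA1A. Of genes at 10 CPM or more, 85.2%, 86.1% and 85.1% had intervals within 1.25-fold. NTC2 against NTC1 gave 0 of 42 genes by edgeR with 0.0% of all genes called. At an unadjusted p under 0.05 it gave 1 gene (AGR2), where 1.72% of all genes met this. The comparison of the 3 guides with each other gave 0 of 42 by edgeR with 0.0% of all genes called. At an unadjusted p under 0.05 it gave 0, where 1.38% of all genes met this. DESeq2 called 0 of the 42 in each. Intervals of NTC2 against NTC1 lay within 1.25-fold for 30 genes, and for 77.6% of all genes at 10 CPM or more.

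The other genes of the same pathways gave no call between guide and NTC lines either. By edgeR 0 of 40 other ER stress and folding genes passed (2 at an unadjusted p under 0.05), 0 of 44 other integrated stress and amino acid genes (2), and 0 of 43 tested other heat shock and cytosolic chaperone genes (2). Their most abundant members were P4HB, the protein disulfide isomerase, at -0.02, SLC1A5, a glutamine transporter, at -0.01, and PTGES3, the Hsp90 co-chaperone p23, at -0.04, all log2 fold changes. Among 24 goblet and mucus genes 0 passed and 13 had an unadjusted edgeR p under 0.05 (54.2%, against 7.98% of all genes). Their median log2 fold change was -0.13. For sg1, sg2 and sg3 singly, 4.17%, 12.5% and 4.17% of the 24 met this, against 2.30%, 1.82% and 2.16% of all genes. Between NTC2 and NTC1 their log2 differences ran from -0.42 to 1.77. The list was chosen with earlier results of these data known, so no guide effect is read from the 13. The mucus protein FCGBP was at -0.20 (SE 0.04, edgeR adjusted p = 0.220).

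The letters mark no treatment in the labels, and the comparison describes how far the replicate libraries of a letter stood from those of the other. The letter moved 17 of the 42 genes, which is 40.5% against a background of 29.6% of 16411 genes and 43.6% of the 9532 genes at 10 CPM or more, so the share of genes called is not particular to these. Of the 17, 3 were higher in B (14.6% of all genes were) and 14 lower (15.0%). Higher were PDIA4, ERN1 and ERN2, all of the ER group. Lower were 5 heat shock genes, 3 integrated stress genes and 6 ER genes. The test compares B with A within the 5 lines by edgeR's quasi-likelihood fit with a term for the line. The median log2 difference of the 42 was -0.04 beside 0.00 over all genes, and sizes were small, from -0.37 for HSPH1 to 0.26 for ERN1. All 17 moved one way in all 5 lines, which a call made on these same pairs of libraries favours. Of all 42 genes, called or not, 17 were lower and 5 higher in B in all 5 lines. In 13 of the 42 genes the A and B libraries did not overlap, against 19.2% of all genes. This share and those by direction were not counted among genes at 10 CPM or more, where 39 of the 42 lie, so no excess is read from them. The share of ribosomal protein genes moved with the letter as given above. The summed goblet markers MUC2, TFF3, SPDEF and FCGBP were at 243 to 285 CPM in A and 372 to 484 CPM in B, and the 10 epithelial markers summed to 7557 to 7752 CPM in A and 6189 to 7171 CPM in B. The epithelial markers split: KRT8 and KRT18, which make up most of the sum, were both at -0.38 and CDX1 at -0.09, while KRT20 was at 0.41, CDX2 at 0.17 and VIL1 at 0.16 (edgeR adjusted p at most 0.0299 for these 6), and the remaining 4, EPCAM, CDH1, LGALS4 and CEACAM5, did not pass. The part of these in the letter differences was not tested, and in bulk RNA fewer cells of a type and less RNA per cell cannot be told apart.

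**Figure D4:**
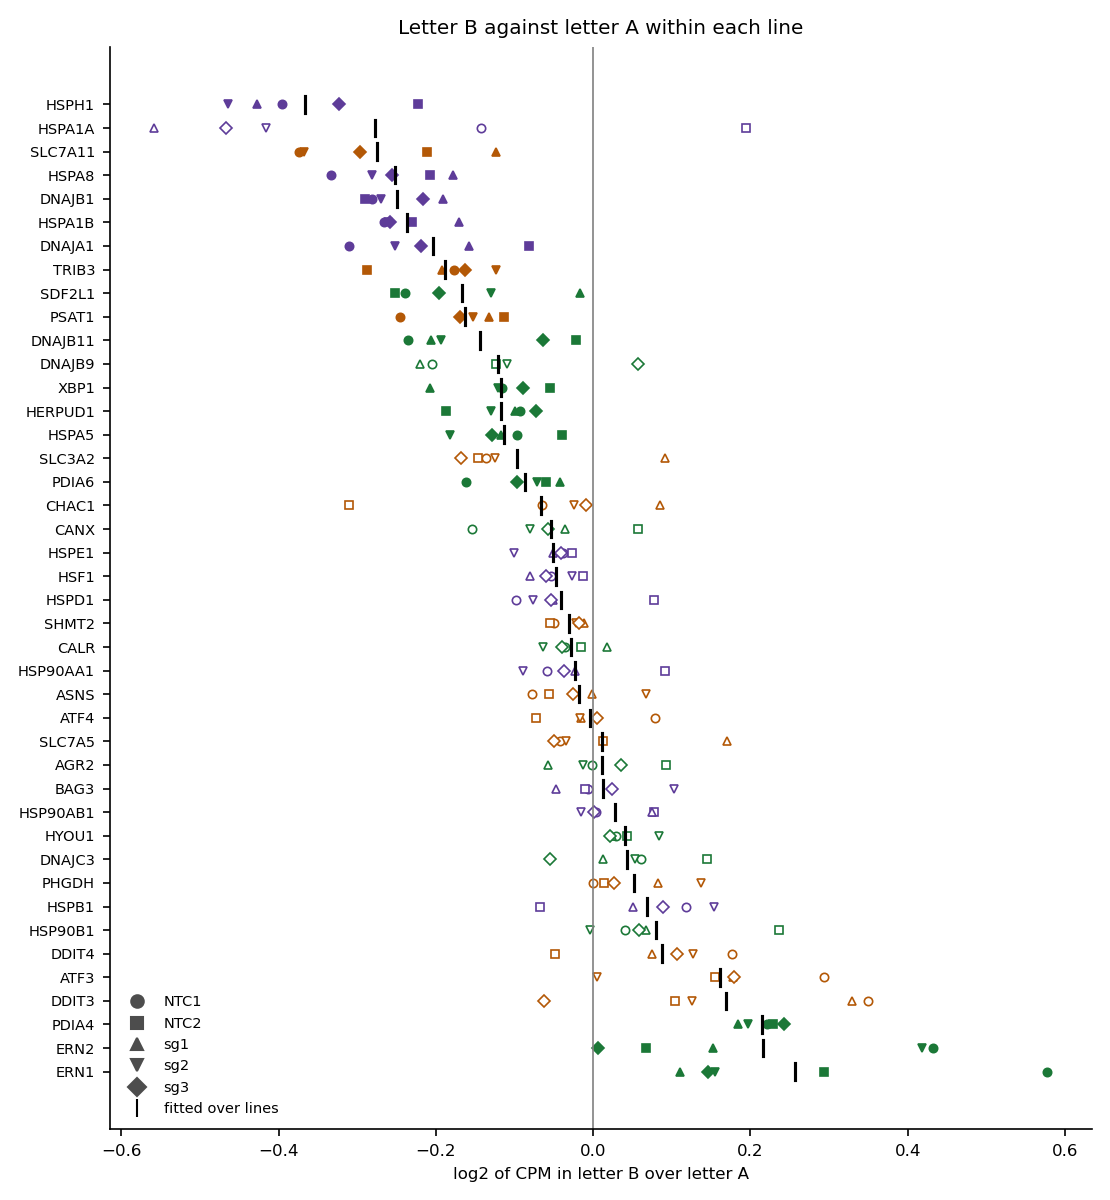
Log2 ratio of CPM in letter B over letter A within each line (symbols) and the fitted value over lines (black ticks), with genes ordered by the fitted value and coloured by group (green ER, orange integrated stress, purple heat shock); filled symbols mark an edgeR adjusted p under 0.05. HSPH1 lies at -0.46 to -0.22 over the lines and PDIA4 at 0.18 to 0.24.

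Heat shock genes that fell in B were Hsp70 and its partners. HSPH1, the Hsp110 nucleotide exchange factor of Hsp70, had 86.1, 74.9, 85.8, 87.1 and 82.5 CPM in A and 65.4, 64.2, 63.8, 63.1 and 65.9 CPM in B. Every A library lay above every B library, with NTC2 A nearest to them. The means were 83.3 ± 4.98 CPM and 64.5 ± 1.17 CPM (SD, n = 5 lines), a log2 difference of -0.37 (SE 0.04, edgeR adjusted p = 1.37e-05). HSPA8 had 5270.0, 5221, 5035, 5173 and 5062 CPM in A and 4181, 4521, 4449, 4255 and 4239.7 CPM in B, at -0.25 (SE 0.02, edgeR adjusted p = 1.37e-05). HSPA8 (ENSG00000109971.14) lies at chr11:123057489-123063230 and HSPH1 (ENSG00000120694.19) at chr13:31134974-31162388, both on the minus strand of GRCh38 in GENCODE 29. For HSPA8 the means of 5152 ± 101 CPM and 4329 ± 147 CPM (SD, n = 5 lines) make it the largest absolute difference of the 42. DNAJB1, the Hsp40 that loads Hsp70 with substrate, had 239, 236, 231, 233 and 231 CPM in A and 196, 193, 203, 193 and 199 CPM in B, at -0.25 (SE 0.03, edgeR adjusted p = 2.34e-05). DNAJA1, another Hsp40, had 439, 407, 410.0, 419 and 407 CPM in A and 354, 385, 368, 352 and 349.9 CPM in B, at -0.20 (SE 0.03, edgeR adjusted p = 3.75e-04). For both, as for HSPA8, no B library reached the lowest A library. HSPA1B had 353, 338, 361, 369 and 359 CPM in A and 293, 288, 321, 308 and 299.7 CPM in B, at -0.24 (SE 0.03, edgeR adjusted p = 2.59e-05); summed with HSPA1A the log2 difference was -0.24 (SE 0.03, edgeR adjusted p = 2.40e-05).

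HSPA1A alone had 6.47, 4.79, 6.78, 7.41 and 5.70 CPM in A and 5.86, 5.49, 4.61, 5.55 and 4.12 CPM in B. It was lower in B in 4 of 5 lines and higher in NTC2, and missed the threshold at -0.28 (SE 0.10, edgeR adjusted p = 0.0536). The Hsp90 genes, the small heat shock gene and the mitochondrial pair did not pass as fitted. HSP90AA1 was at -0.02 (SE 0.03, edgeR adjusted p = 0.556), and HSP90AB1 at 0.03 (SE 0.02, edgeR adjusted p = 0.393). HSPD1 was at -0.04, HSPE1 at -0.05, HSPB1 at 0.07, BAG3 at 0.01 and HSF1 at -0.05. The 13 heat shock genes summed to 14633 to 15113 CPM in A and 13583 to 14532 CPM in B, which did not overlap. Without HSPA8 the sums were 9598 to 9869.5 CPM in A and 9348 to 10010.5 CPM in B, which did. In this group 5 of 13 genes passed. Without line NTC2, or without either of its libraries, 8 of 13 did. Over all genes 4286 of 16242 passed without line NTC2, against 4850 of 16411 as fitted. The share among genes at 10 CPM or more was not counted for that setting, so no excess is read from the 8. Without line NTC2, HSPA1A stood at -0.39 (edgeR adjusted p = 0.00724) and HSPD1 at -0.07 (edgeR adjusted p = 0.0340), both lower in B, and HSPB1 at 0.11 (edgeR adjusted p = 0.00960), higher in B. HSPA1A also passed without a filter on low counts and when genes under a mean of 5 CPM were left out.

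The 3 called integrated stress genes fell in B. SLC7A11, the cystine transporter that feeds glutathione synthesis, had 166, 158, 155, 163 and 157 CPM in A and 128, 137, 142, 127 and 128 CPM in B, at -0.27 (SE 0.04, edgeR adjusted p = 1.13e-04). TRIB3, a pseudokinase that restrains ATF4 signalling, had 151, 169, 155, 163 and 158 CPM in A and 133, 139, 135, 149.9 and 142 CPM in B, at -0.19 (SE 0.03, edgeR adjusted p = 3.41e-04). PSAT1, the second enzyme of serine synthesis, had 446, 430.4, 423, 425 and 413 CPM in A and 376, 398, 386, 382 and 367 CPM in B, at -0.16 (SE 0.03, edgeR adjusted p = 4.94e-04). In each of the 3 the letters did not overlap; for TRIB3 the gap was narrow, 149.9 CPM in sg2 B against 150.7 CPM in NTC1 A. Other targets of ATF4 had differences near 0 or in the other direction, none past the threshold as fitted: ASNS -0.02, CHAC1 -0.07, PHGDH 0.05, DDIT4 0.09 and DDIT3 0.17, with ATF4 itself at -0.0044 and ATF3 at 0.16. SLC3A2 lay just outside at -0.10 (SE 0.03, edgeR adjusted p = 0.0510), and passed without line sg1 (-0.14, edgeR adjusted p = 7.32e-04), the line in which it was not lower in B. The count of 3 in this group became 5 of 13 with a correction for GC content and 5 of 13 when genes under a mean of 5 CPM were left out. The 2 gained were SLC3A2, lower in B, and DDIT4, higher in B, at 0.09 with the GC correction (edgeR adjusted p = 0.0256) and 0.10 with the low-level genes dropped (edgeR adjusted p = 0.0320). DDIT4 also passed without line NTC2 (0.13, edgeR adjusted p = 0.00836), the line in which it was lower in B.

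The ER group split. PDIA4, an ER disulfide isomerase, rose in B in every line, from 470.4, 472, 486, 475 and 473 CPM in A to 548, 553, 552, 545 and 559 CPM in B. The means were 475 ± 6.07 CPM and 552 ± 5.31 CPM (SD, n = 5 lines), a log2 difference of 0.21 (SE 0.02, edgeR adjusted p = 3.23e-05), and the letters lay far apart beside the spread within them. The gene (ENSG00000155660.11) lies at chr7:149003062-149028641 on the minus strand. ERN1 had 9.08, 9.73, 11.1, 10.2 and 11.4 CPM in A and 13.6, 11.9, 12.0, 11.4 and 12.6 CPM in B, at 0.26 (SE 0.07, edgeR adjusted p = 0.0123). The highest A library, sg3, and the lowest B library, sg2, were both at 11.4 CPM. ERN2 had 19.7, 21.7, 22.7, 20.2 and 23.2 CPM in A and 26.6, 22.7, 25.2, 27.0 and 23.2 CPM in B, at 0.22 (SE 0.06, edgeR adjusted p = 0.0158), with overlapping letters. Both calls were lost without line NTC1, where ERN1 was at 0.17 (edgeR adjusted p = 0.0645) and ERN2 at 0.16 (edgeR adjusted p = 0.0909), and ERN2 was also lost without line sg2 (0.17, edgeR adjusted p = 0.0720).

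The other 6 ER genes past the threshold fell in B, by 0.09 to 0.17 on the log2 scale. SDF2L1, with the values given above, was at -0.17 (SE 0.04, edgeR adjusted p = 0.00449). DNAJB11, a BiP co-chaperone, had 84.1, 79.8, 81.3, 82.1 and 78.0 CPM in A and 71.4, 78.6, 70.5, 71.8 and 74.6 CPM in B, at -0.14 (SE 0.04, edgeR adjusted p = 0.00716). XBP1 was at -0.12 (SE 0.03, edgeR adjusted p = 0.00629) and HSPA5 at -0.11 (SE 0.03, edgeR adjusted p = 0.00475). All 5 lines were lower in B for each of these genes, and for SDF2L1 and HSPA5 the letters did not overlap. HERPUD1, which serves ER-associated degradation, had 82.6, 85.6, 84.7, 84.5 and 82.2 CPM in A and 77.4, 75.1, 79.0, 77.2 and 78.2 CPM in B, at -0.12 (SE 0.03, edgeR adjusted p = 0.00700). Its letters did not overlap either. PDIA6, another disulfide isomerase, had 595, 595, 578, 585 and 571 CPM in A and 532, 571, 561, 556 and 534 CPM in B, at -0.09 (SE 0.03, edgeR adjusted p = 0.0201). It missed the threshold in 7 of 22 alternatives, among them leaving out line NTC1 (-0.07, edgeR adjusted p = 0.0770). All 7 left out NTC1, sg2 or sg3 or a library of these. Leaving out either library of a line nearly repeats leaving out the line, so the 7 are not separate results. The more abundant lectin and Hsp90 of the ER did not pass as fitted. HSP90B1 had 920.0, 864, 892, 924 and 878 CPM in A and 946, 1018, 934, 921 and 915 CPM in B and missed the threshold at 0.08 (SE 0.03, edgeR adjusted p = 0.0728), with NTC2 B highest. It passed, higher in B, in 4 alternatives: with DESeq2 (adjusted p = 0.0258), without a filter on low counts (edgeR adjusted p = 0.0120), with genes averaging under 5 CPM dropped (edgeR adjusted p = 0.0267) and with the GC correction (edgeR adjusted p = 0.0139). CALR had 1099, 1135, 1094, 1115 and 1089 CPM in A and 1072, 1123, 1107, 1066 and 1060.0 CPM in B, at -0.03 (SE 0.02, edgeR adjusted p = 0.405), and AGR2 was at 0.01. The 16 ER genes summed to 6319 to 6476 CPM in A and 6262 to 6702 CPM in B, which overlapped, with NTC2 B highest.

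**Figure D5:**
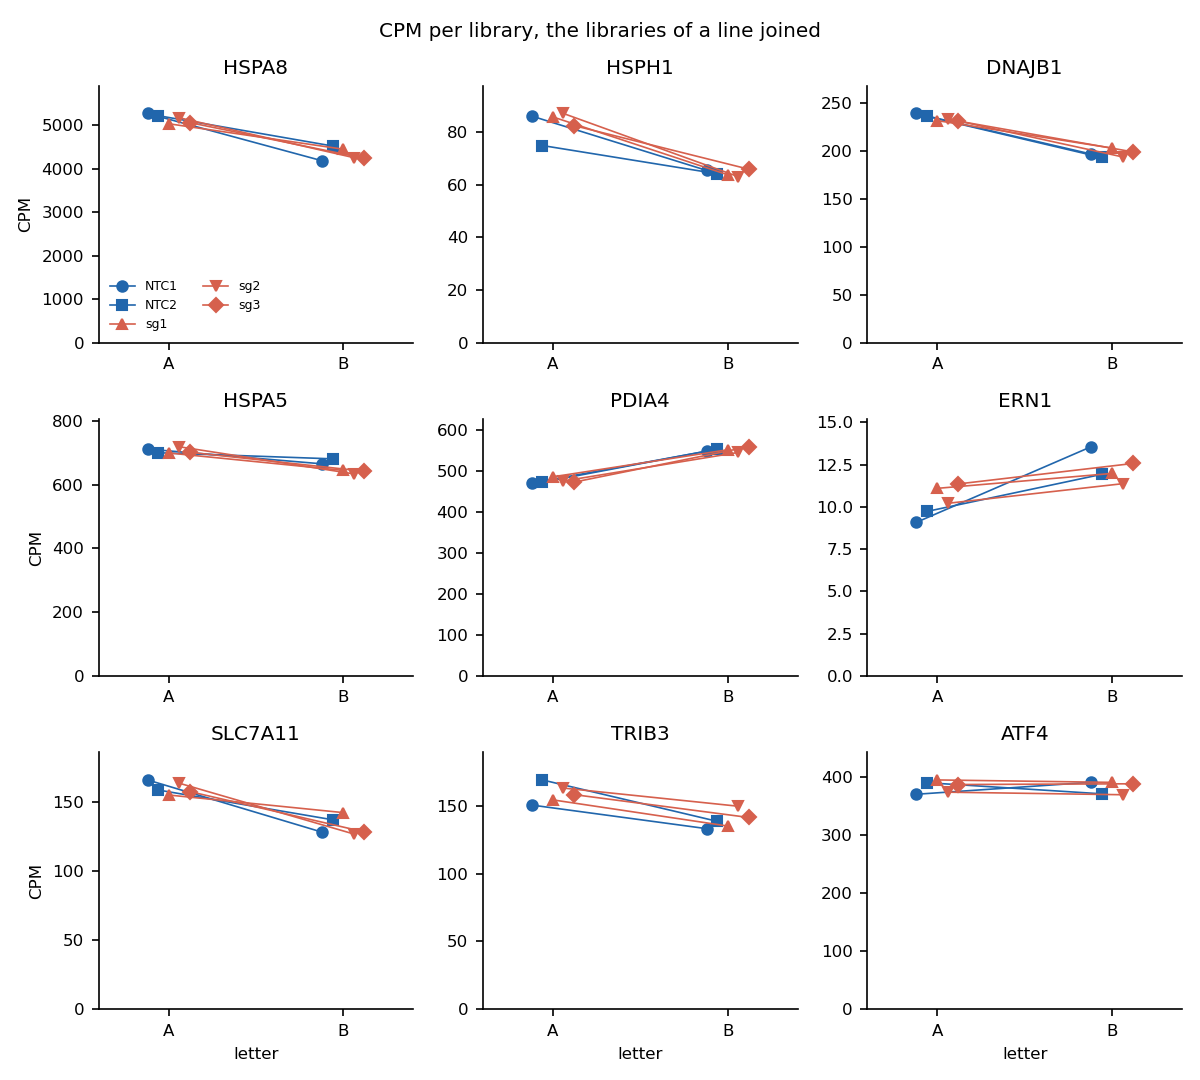
CPM of 9 genes in each library, with the A and B library of a line joined (blue NTC lines, red guide lines) and axes starting at 0. Lines run downward for HSPA8, HSPH1, DNAJB1, HSPA5, SLC7A11 and TRIB3, upward for PDIA4 and ERN1, and stay level for ATF4, with blue and red lines side by side.

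No gene passed a test of whether the letter difference was unequal in guide and NTC lines. The test gave 0 of 42 genes by edgeR with 0.0% of all genes called. At an unadjusted p under 0.05 there were 3 (7.14%, against 5.73% of all genes): HSPA1A at -0.50 (SE 0.16), ERN1 at -0.30 (SE 0.12) and CHAC1 at 0.20 (SE 0.09). DESeq2 called 0 of the 42. For HSPA8 the 95% interval of the difference ran from -0.07 to 0.13 and for PDIA4 from -0.12 to 0.08 on the log2 scale, while for HSPH1 it ran from -0.24 to 0.05. Intervals lay within 1.25-fold for 36 genes, and for 85.6% of all genes at 10 CPM or more.

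Beside the letter, NTC2 B and sg1 B were often the highest of the B libraries, in different groups. Among the 5 B libraries, NTC2 B was the highest for 11 of 16 ER genes and sg1 B for 7 of 13 integrated stress genes, while in A the highest was NTC2 for 6 ER genes and for 7 integrated stress genes. These counts are a description of single libraries without a test. How often these libraries were highest among all genes was not counted, so the counts are not read as particular to these groups. NTC2 B held 1018 CPM of HSP90B1 and 1399.5 CPM of CANX, the membrane-bound lectin calnexin, and sg1 B held 1329 CPM of SLC7A5 and 409 CPM of SLC3A2. Another 7 members passed in no comparison as fitted, though CANX and SLC3A2 passed for the letter under some of the alternative settings. Over the 10 libraries CANX ranged from 1259 to 1401 CPM, HYOU1, an Hsp110-type exchange factor of the ER, from 169 to 181 CPM, and DNAJC3, the ER co-chaperone p58IPK, from 74.5 to 82.4 CPM. SHMT2, the mitochondrial serine hydroxymethyltransferase, ranged from 375 to 408 CPM, SLC3A2 from 353 to 409 CPM, HSPE1 from 296 to 323 CPM and HSP90AB1 from 3009.9 to 3295 CPM.

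The other genes of the pathways are read against the same background for the letter, 29.6% of all genes and 43.6% of those at 10 CPM or more. Of 40 other ER stress and folding genes 18 passed (45%), 6 higher and 12 lower in B. Higher were OS9, a lectin of ER-associated degradation, by 0.25, UGGT1, the glucosyltransferase that checks glycoprotein folding, by 0.20, and PDIA5 by 0.19. Lower were SRPRB, a subunit of the signal recognition particle receptor, at -0.22, WFS1 at -0.20 and DERL1 at -0.17 (edgeR adjusted p at most 0.00135 for these 6). Of 43 tested other integrated stress and amino acid genes 18 passed (41.9%), 9 in each direction. Higher were STC2, a secreted glycoprotein, by 0.25, and the eIF2 kinases EIF2AK2 (PKR) by 0.24 and EIF2AK4 (GCN2) by 0.18. Lower were SLC1A5 at -0.22, CLIC4 at -0.15 and PSPH, the last enzyme of serine synthesis, at -0.12. Of 43 tested other heat shock and cytosolic chaperone genes 22 passed (51.2%), 5 higher and 17 lower. Lower were CHORDC1, an Hsp90 co-chaperone, at -0.35, the Hsp40 gene DNAJA4 at -0.33 and the collagen chaperone SERPINH1 at -0.27, and higher were HSF2, a relative of HSF1, by 0.25, the Hsp70 exchange factor BAG1 by 0.18 and FKBP5 by 0.15. Of 24 tested goblet and mucus genes 13 passed (54.2%), 9 higher, of which those with the smallest p were FCGBP at 0.90, the mucin MUC2 at 0.65 and the secretory factor ATOH1 at 0.44, and 4 lower, of which those with the smallest p were the trefoil peptide TFF1 at -0.76, REG4 at -0.17 and TSPAN13 at -0.16.

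As a description over 10 libraries that share the letter step, the genes with log2 CPM most alike HSPA5 were ZRANB2 (Pearson r = 0.97), CRYZ (0.97) and PRKAG2 (0.97), and those most alike HSPA1A were FGFR1OP (0.95), PPWD1 (0.93) and CPOX (0.92), each chosen as the highest of 9521 genes. No other member stood among them.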

How the data were processed

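The 10 libraries of 5 LS180 lines came as a single deposited matrix of expected counts, made with RSEM by its name. The submitters' processing notes list hg38 as the build and name FastQC 0.11.2, TopHat2 2.0.8 and CASAVA 1.8.2, without roles; the annotation is not given in the sources used here. Where reads match more than one gene RSEM apportions them, which leaves near-identical and overlapping genes uncertain; 7.12% of values were not whole and were rounded, by at most 0.5. Positions and lengths come from GENCODE 29 (58597 identifiers matched).

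Tests used the quasi-likelihood fit of edgeR 4.0.16 in R 4.3.3 with TMM normalization and filterByExpr, two-sided, with Benjamini-Hochberg adjustment over all genes tested (17335 in the comparison of lines with letters summed, 16411 in fits of 10 libraries) and a threshold of 0.05. CPM is after TMM scaling. Alternatives were DESeq2 1.42.0, RLE normalization, other filters, a GC correction, a replicate block, single letters, and leaving out libraries or lines. The scripts were tested on simulated data. The members and lists were chosen with earlier results of these data known. Values per library were given for 30 members named by role and for members past the threshold; from other lists, up to 3 genes per direction with the smallest p, or the most abundant one.

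Deviations from line means were correlated between same-lettered libraries in 10 of 10 pairs (r 0.189 to 0.361 over 16411 genes, 0.486 to 0.781 over 9527 genes at 10 CPM or more), so the letters pair the samples, as judged from the data and the shared letters. In fits of 10 libraries the 95% intervals take in the spread between libraries as well as counting error. For guide lines against NTC lines, fitted on sums per line, they take in the spread between lines instead. Genes most alike in pattern were also ranked for ASNS, and that ranking is not reported here.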

Additional observations from a re-analysis of the deposited data

Results flagged for a closer look

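Within each letter, within the guide libraries and within the NTC libraries, each gene's highest and lowest library was compared with the others by Dixon's criterion; 9 of 168 groups tested, in 8 genes, had a library farther from its nearest neighbour than the 95% limit, and chance alone gives about 1 in 20. NTC2 gave 4 of them. NTC2 B was the highest B library for DNAJB9 at 20.9 CPM (next 19.7 CPM) and for HSPD1 at 2299.96 CPM (next 2149 CPM), and NTC2 A was the highest A library for AGR2 at 621 CPM (next 578 CPM) and for CHAC1 at 27.2 CPM (next 23.3 CPM). The amino acid transporter genes gave 3, all in sg1: SLC7A5 was lowest of the A libraries at 1180.6 CPM (next 1219 CPM) and highest of the guide libraries, in B, at 1329 CPM (next 1229.6 CPM), and SLC3A2 was highest of the B libraries at 409 CPM (next 366 CPM). ATF3 was highest of the A libraries in sg2 at 4.32 CPM (next 3.85 CPM), and DDIT3 was lowest of them in NTC1 at 2.28 CPM (next 2.64 CPM); both rest on few counts.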

How the results depend on the processing

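No call of any of the 42 genes reversed its direction under an alternative. Between guide and NTC lines the count stayed at 0 except without a filter on low counts, where 1 gene passed (AGR2, -0.10, edgeR adjusted p = 0.0467). With the letter as a replicate block 0 of 42 genes passed between guide and NTC lines, for each guide, between the NTC lines and among guides, and the block changed no call. It did move the counts at an unadjusted edgeR p under 0.05. They were 2 for sg1, 5 for sg2, 4 for sg3 and 3 for NTC2 against NTC1, in place of 1, 2, 0 and 1. The shares of all genes under the block were not counted, so no excess is read from these. Between guide and NTC lines there were 5 in place of 6. Of the 17 letter differences, 14 kept their call in all 22 alternatives and all 17 kept their direction, while PDIA6, ERN1 and ERN2 were lost in some. These alternatives are not independent. With a term for the line, leaving out either library of a line nearly repeats leaving out the line. The letter count was 19 with DESeq2, 20 without a filter, 21 at a mean of 5 CPM or more and 20 with the GC correction, and 14 to 22 when a library or a line was left out. Integrated stress genes gave 5 in place of 3 with the GC correction, and 5 once genes averaging under 5 CPM were dropped. Heat shock genes gave 5 to 8 when a library was left out, 8 of them without either NTC2 library and 8 without line NTC2. Over all genes the letter fit called 4850 of 16411 genes, 3920 of 16411 with DESeq2 and 5272 of 16411 with the GC correction. It called 5080 of 28488 without a filter and 4816 of 10755 at a mean of 5 CPM or more. When a library or a line was left out it called from 3399 of 17025 to 5010 of 16256. Between guide and NTC lines the number was 4, 55 with DESeq2, 238 without a filter and 7 with genes of at least 5 CPM. Depth limits DDIT3, ATF3 and HSPA1A, which had at most 331 counts in a library.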
